A study of Mus musculus with 8 samples.

Results

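The insulin-like growth factor (IGF) system was followed in the developing mouse retina through 10 genes of the 21830 measured, namely the ligands Igf1 and Igf2, the non-coding gene H19, the receptors Igf1r and Igf2r, and the binding proteins Igfbp2, Igfbp3, Igfbp4, Igfbp5, and Igfbp7. The 10 genes were picked by name, and the choice was made with the results of these libraries known: their FPKM, and the fraction in which each was higher at P2 and at P8, are the values they were selected on. Those values are therefore given as a description, without a test. RNA sequencing had been done on retinas of wild-type mice of the ICR strain, an albino stock, with 1 library for each of 8 conditions. These were the whole retina at embryonic days 15 (E15) and 18 (E18), and, at postnatal days 2, 5, and 8 (P2, P5, P8), a fraction positive for the surface enzyme Cd73 (Cd73PC) and the negative remainder (Cd73NC). Retinas were pooled before they were sorted, and no condition had a replicate library, so no difference could be set against the spread between animals and no p-value is given.

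IGF-I and IGF-II are secreted peptides that act mainly through the IGF-I receptor, a tyrosine kinase that signals to Akt through insulin receptor substrates and phosphoinositide 3-kinase. The IGF-II receptor binds IGF-II and carries it to lysosomes without signalling as a kinase, and the binding proteins hold the peptides in the extracellular space and set how much reaches the receptor. Igf2 and H19 are neighbouring imprinted genes: Igf2 is read from the paternal and H19 from the maternal chromosome, and they compete for shared enhancers. H19 yields no protein, and its transcript carries the precursor of a microRNA, miR-675. In the retina, IGF-I is known for its role in vessel growth and in the survival of neurons.

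Positions are given on NCBI37/mm9, the build of the files. H19 lies on chromosome 7 from 149761437 to 149764051, and Igf2 starts 72.6 kb further on and runs from 149836673 to 149846940, both on the minus strand. Igf1r is on the plus strand of the same chromosome from 75097143 to 75378553. Igfbp2, from 72871077 to 72899045 on the plus strand of chromosome 1, and Igfbp5, from 72904639 to 72921439 on the minus strand, are 5.59 kb apart and point towards each other. Igf1 is on chromosome 10 from 87321801 to 87399792, Igfbp3 and Igfbp4 are on chromosome 11 from 7106096 to 7113926 and from 98902574 to 98913957, Igfbp7 is on chromosome 5 from 77778265 to 77837070, and Igf2r is on chromosome 17 from 12875272 to 12962572. Reads were not assigned to a strand, and the antisense transcripts Igf2as and Airn were compared with these genes. By genomic span, introns included, Igf2 shares 1343 bases with Igf2as, and Igf2r shares 28396 bases with Airn. Reads from transcribed parts of those stretches cannot be told apart. A search for overlap with all other genes was not made.

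The 2 arms of miR-675, whose precursor lies in H19, are shown 5′ to 3′ from RefSeq with the seed (bases 2 to 8) in capitals. On GRCm38.p6 they lie on the minus strand of chromosome 7, the 3p arm from 142577078 to 142577099 and the 5p arm from 142577112 to 142577133.
mmu-miR-675-3p: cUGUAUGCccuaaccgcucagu
mmu-miR-675-5p: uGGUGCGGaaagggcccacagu
The complement of the 3p seed, GCATACA, occurs at 2 places in the 7266 bases that follow the stop codon of Igf1r up to the end of its row in the files. Both are shown on the plus strand of NCBIM37 with the match in capitals, which begins at base 505 and at base 1264 after the stop codon.
Igf1r site at chr7:75371781-75371809: ctcatcaccccGCATACAcctgcctgaca
Igf1r site at chr7:75372540-75372568: gtgaaacatttGCATACAcatcgtcttta
Of 22232 genomic stretches of that length, taken behind the coding part of each annotated protein-coding gene (Igf1r included), 39.5% held GCATACA. The complement of the 5p seed, CCGCACC, was found 0 times after the Igf1r stop codon and in 9.37% of the stretches. A match describes letters only, and mature miR-675 was not measured: its row in the files overlaps the H19 transcript and was marked by Cufflinks as having too little data.

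Promoters were read for 9 of the 10 genes from RefSeq (13 windows on GRCm38.p6, each with 250 bases before the transcription start and 30 after it). The windows shown are those of Igf2 that held a motif, that of Igfbp5, which changed fractions together with Igf2, and that of Igfbp4, which stayed higher in Cd73NC. Capitals mark the motifs searched on both strands, which were TATAAA (a core promoter element), GGGCGG (the GC box), and GGATTA (a site for the photoreceptor homeodomain factors Otx2 and Crx). The matches do not overlap each other in these windows.
Igf2 at chr7:142658775-142659054, minus strand: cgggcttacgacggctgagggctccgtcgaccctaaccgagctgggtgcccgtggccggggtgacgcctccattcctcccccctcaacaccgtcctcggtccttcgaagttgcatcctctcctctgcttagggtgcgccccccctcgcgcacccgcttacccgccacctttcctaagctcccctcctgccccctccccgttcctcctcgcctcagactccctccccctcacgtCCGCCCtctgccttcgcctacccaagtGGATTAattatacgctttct
Igf2 at chr7:142657467-142657746, minus strand: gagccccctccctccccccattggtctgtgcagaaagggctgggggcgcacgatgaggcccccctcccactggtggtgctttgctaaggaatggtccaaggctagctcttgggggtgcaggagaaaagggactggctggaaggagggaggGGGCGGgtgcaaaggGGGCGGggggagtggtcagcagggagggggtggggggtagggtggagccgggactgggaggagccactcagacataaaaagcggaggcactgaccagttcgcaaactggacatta
Igfbp5 at chr1:72874836-72875115, minus strand: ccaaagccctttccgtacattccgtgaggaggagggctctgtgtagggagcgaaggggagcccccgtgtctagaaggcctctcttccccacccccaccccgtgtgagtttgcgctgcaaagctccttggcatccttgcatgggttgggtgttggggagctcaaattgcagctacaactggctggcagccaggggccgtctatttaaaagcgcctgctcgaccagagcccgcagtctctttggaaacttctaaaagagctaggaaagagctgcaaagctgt
Igfbp4 at chr11:99040994-99041273, plus strand: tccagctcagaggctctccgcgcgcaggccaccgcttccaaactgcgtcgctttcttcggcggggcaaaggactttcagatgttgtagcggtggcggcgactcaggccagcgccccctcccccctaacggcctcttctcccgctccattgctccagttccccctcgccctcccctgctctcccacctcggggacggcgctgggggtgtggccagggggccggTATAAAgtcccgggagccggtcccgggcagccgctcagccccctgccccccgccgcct
The GGATTA of Igf2 stands 11 bases after the start, and 6.77% of 32851 promoter windows held this motif. The GC box was in 34.7% and TATAAA in 13.1% of all windows. Of the 4 windows of Igf2, 2 held none of the motifs, nor did those of Igf1, Igfbp3, and Igfbp5. The TATAAA of Igfbp4 begins 28 bases before the start. GC boxes were found in the windows of Igf1r (2), Igf2r (3), Igfbp7 (4), and 1 of the 2 windows of Igfbp2 (3).

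The deposited tables give expression as FPKM, which is the number of sequenced fragments scaled to the length of the transcript and to the mapped total. Cufflinks adds bounds that describe the estimate within a library. The depth was recovered from the steps that single reads leave in weakly expressed genes, and it ranged from 14600000 mapped fragments (E15) to 24400000 (P2 Cd73PC), where 1 read per kilobase is worth 0.0687 and 0.0410 FPKM. Each of the 10 genes had 1 row and an accepted estimate in all 8 libraries. The identity of the fractions was checked on 9 rod genes, whose summed level in Cd73PC was 4676, 9875, and 13518 FPKM from P2 over P5 to P8, against 109, 1239, and 988 in Cd73NC, with all 9 past 1.5-fold at each stage and Sag and Rom1 highest. Markers of ganglion cells (Sncg and Nefl highest), which were 845 and 554 FPKM in sum in the whole retina at E15 and E18, summed to at most 15.4 in any sorted fraction. In such bulk samples, fewer cells of a type and less RNA per cell cannot be told apart.

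**Figure D1:**
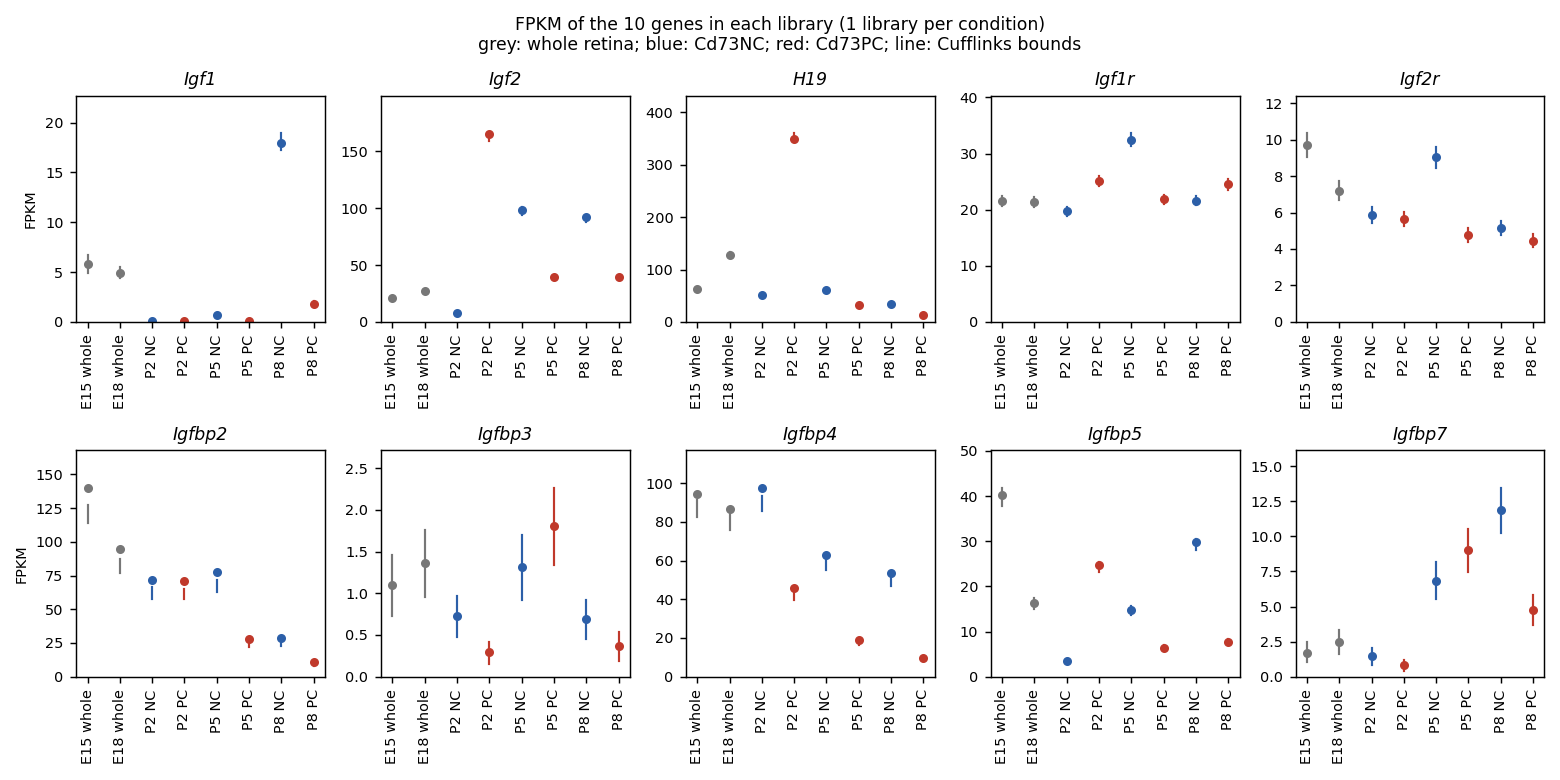
FPKM (y axis, linear, from 0) of the 10 genes in the 8 libraries (x axis), with whole retina in grey, Cd73NC in blue, and Cd73PC in red. Points are single libraries and lines span Cufflinks' bounds. Igf2 and H19 stood highest in P2 Cd73PC, at 165 and 349 FPKM, and Igf1 in P8 Cd73NC, at 18.0.

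Igf2, the ligand that dominates fetal growth, was the more abundant ligand in every library. Its FPKM was 20.8 at E15 and 27.2 at E18, then 7.92, 98.5, and 92.3 in the Cd73NC libraries of P2, P5, and P8, and 165, 39.3, and 39.2 in the matching Cd73PC libraries. The P2 libraries held both the highest and the lowest value, and from P5 the order of the fractions was the opposite. At P2, Igf2 was 20.9-fold higher in Cd73PC as FPKM (18.6-fold on FPKM + 1, a log2 ratio of 4.22), with bounds of 159 to 166 against 7.16 to 8.68. At P5 it was 2.51-fold and at P8 2.35-fold higher in Cd73NC, and the bounds of the fractions did not overlap at any stage. Both fractions changed between P2 and P5: Cd73PC was 4.21-fold lower at P5, and Cd73NC was 12.4-fold higher. From P5 to P8 each fraction stayed within 1.07-fold.

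H19 is the non-coding neighbour of Igf2. It stood at 63.8 FPKM at E15 and 128 at E18. From P2 over P5 to P8 it was 51.7, 61.6, and 34.4 in Cd73NC, and 349, 31.6, and 12.5 in Cd73PC. It was the highest of the 10 genes in E18 whole retina and in P2 Cd73PC. The fraction order was that of Igf2: 6.75-fold higher in Cd73PC at P2, then 1.95-fold and 2.76-fold higher in Cd73NC at P5 and P8, with separate bounds each time. The courses within a fraction were unlike those of Igf2. In Cd73PC, H19 was 28.0-fold lower at P8 than at P2, against 4.21-fold for Igf2, and in Cd73NC it was 1.504-fold lower where Igf2 was 11.6-fold higher. The ratio of H19 to Igf2 was therefore 3.07 at E15 and 4.68 at E18, and from P2 over P5 to P8 it was 6.52, 0.625, and 0.372 in Cd73NC and 2.11, 0.805, and 0.318 in Cd73PC. H19 exceeded Igf2 in the 4 earliest libraries and was below it in the 4 later ones, in both fractions alike.

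Igf1, the ligand that growth hormone induces in the liver and that many tissues also make locally, was low in most libraries. The whole retina held 5.79 FPKM at E15 and 4.95 at E18. Over P2, P5, and P8, Cd73NC held 0.0609, 0.663, and 18.0 FPKM, and Cd73PC 0.0924, 0.0874, and 1.79. The P2 values amount to 1.16 and 2.25 reads per kilobase of transcript, so a difference between the fractions was not detectable at this depth. Igf1 was well above this range at P8, where Cd73NC was 10.02-fold above Cd73PC (6.79-fold on FPKM + 1). The bounds were 17.2 to 18.9 in Cd73NC and 1.52 to 2.07 in Cd73PC. Within Cd73NC, the step from P5 to P8 was 27.1-fold. Even there, Igf1 lay far below Igf2, whose bounds were 88.2 to 93.4.

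The receptors varied least. Igf1r, the signalling receptor, was at 21.6 FPKM at E15 and 21.4 at E18, at 19.7, 32.5, and 21.6 in the Cd73NC libraries of P2, P5, and P8, and at 25.1, 21.8, and 24.5 in those of Cd73PC. Its range over the libraries was from 19.7 to 32.5, and P5 Cd73NC stood apart at the top. The fractions were within 1.5-fold on FPKM + 1 at every stage, although their bounds did not overlap: the ratio was 1.26-fold towards Cd73PC at P2, 1.47-fold towards Cd73NC at P5, and 1.13-fold towards Cd73PC at P8. Igf2r, the clearance receptor for IGF-II, was at 9.69 FPKM at E15 and 7.20 at E18. Its levels in Cd73NC were 5.86, 9.03, and 5.16 from P2 over P5 to P8, and those in Cd73PC were 5.67, 4.78, and 4.46. Its fractions had overlapping bounds at P2 and P8, and at P5 it was 1.74-fold higher in Cd73NC on FPKM + 1. The antisense transcript Airn, whose span overlaps that of Igf2r, was listed higher in Cd73PC at the 3 stages. It was at 1.30 against 0.485, 1.99 against 0.750, and 1.75 against 0.678 FPKM.

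Among the binding proteins, Igfbp2 and Igfbp4 were the abundant ones. Igfbp2, which is common in fetal tissue and brain, was at 140 FPKM at E15 and 95.0 at E18, at 71.3, 77.4, and 28.4 in the Cd73NC libraries of P2, P5, and P8, and at 71.0, 28.2, and 10.99 in those of Cd73PC. The bounds of the fractions overlapped at P2, and the values then parted to a 2.75-fold excess in Cd73NC at P5 and a 2.58-fold excess at P8. Within Cd73PC it was lower at each later stage (6.46-fold from P2 to P8), while Cd73NC was lower only after P5. Igfbp4, made by many tissues as an inhibitor of IGF action, was at 94.3 FPKM at E15 and 86.7 at E18. Its levels in Cd73NC were 97.5, 63.1, and 53.7 from P2 over P5 to P8, and those in Cd73PC were 45.7, 19.2, and 9.69. It was the only one of the 10 genes past 1.5-fold in the same direction at all 3 stages, and its excess in Cd73NC was 2.13-fold, 3.29-fold, and 5.54-fold in turn. The deposited FPKM of Igfbp2 lay outside its own bounds in 7 libraries and that of Igfbp4 in 6, each time above the upper bound, so the bounds of both are a poor guide.

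Igfbp5, a binding protein that also attaches to the extracellular matrix, took the same turn as Igf2 and H19. The whole retina held 40.2 FPKM at E15 and 16.3 at E18. Over P2, P5, and P8, Cd73NC held 3.43, 14.8, and 29.8 FPKM, and Cd73PC 24.7, 6.45, and 7.77. It was 7.21-fold higher in Cd73PC at P2 and 2.30-fold and 3.84-fold higher in Cd73NC at P5 and P8, with separate bounds at each stage. Cd73NC gained at each step, 8.68-fold from P2 to P8, and Cd73PC was 3.83-fold lower at P5 than at P2. Its neighbour Igfbp2, 5.59 kb away, showed no such excess in Cd73PC at P2.

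The remaining binding proteins reached at most 11.9 FPKM (Igfbp7) and 1.80 FPKM (Igfbp3). Igfbp7, a related protein with low affinity for the IGFs that is found around vessels, was at 1.72 FPKM at E15 and 2.46 at E18, at 1.45, 6.82, and 11.9 in the Cd73NC libraries of P2, P5, and P8, and at 0.805, 9.00, and 4.72 in those of Cd73PC. It was above its P2 level in both fractions from P5 on, and past 1.5-fold between fractions only at P8, where Cd73NC was 2.51-fold higher. At P2 and P5 its bounds overlapped between the fractions. Igfbp3, the main carrier of IGFs in blood, was at 1.103 FPKM at E15 and 1.36 at E18, at 0.724, 1.31, and 0.687 in the Cd73NC libraries, and at 0.293, 1.80, and 0.373 in those of Cd73PC. It was not past 1.5-fold on FPKM + 1 at any stage, and at P5 and P8 its bounds overlapped between the fractions. As FPKM, it was 2.47-fold higher in Cd73NC at P2, with separate bounds. Its P2 levels were 13.8 reads per kilobase in Cd73NC and 7.14 in Cd73PC.

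The order of the 10 genes by FPKM changed with age and fraction. Igfbp2, Igfbp4, and H19 led in E15 whole retina, and H19, Igfbp2, and Igfbp4 in E18 whole retina, where the bounds of Igfbp2 and Igfbp4 overlapped. In P2 Cd73NC the leaders were Igfbp4, Igfbp2, and H19, and in P2 Cd73PC they were H19, Igf2, and Igfbp2. Igf2 led in all 4 libraries of P5 and P8. The bottom places were shared by Igf1, Igfbp3, and Igfbp7 in the libraries up to P2, and Igfbp3 was last at P8 in both fractions. Summed over the 10 genes, the level was 399 FPKM at E15 and 390.0 at E18. From P2 over P5 to P8 the sum was 260, 366, and 296 in Cd73NC and 688, 162, and 116 in Cd73PC, so that its share of all FPKM went from 0.180% in the first Cd73PC library to 0.0321% in the last.

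The question that the sorted libraries allow is whether a gene of the system lay in the same fraction at P2 and P8. In the P2 libraries, 3 of the 10 genes were past 1.5-fold on FPKM + 1 in Cd73PC (Igf2, H19, and Igfbp5) and 1 in Cd73NC (Igfbp4). Of all genes, 8.57% were past this fold in Cd73PC at P2 and 14.4% in Cd73NC, and of the 13422 genes with an FPKM of at least 1 in a library the shares were 13.7% and 23.3%. At P5, 0 of the 10 were higher in Cd73PC and 7 in Cd73NC (Igf1, Igf2, H19, Igf2r, Igfbp2, Igfbp4, and Igfbp5), where the shares of all genes were 7.02% and 15.6%, and those of the expressed genes 11.3% and 25.1%. At P8 the counts were again 0 and 7, with Igfbp7 in the place of Igf2r, against 7.54% and 18.6% of all genes and 12.1% and 29.6% of the expressed genes. Since the 10 genes were picked with these ratios known, nothing is read from the excess over those shares. On FPKM + 1, the threshold lay close to single genes at P5: Igf1, at 1.53-fold, was just inside it and Igf1r, at 1.47-fold, just outside. As FPKM, Igf1 was 7.58-fold higher in Cd73NC at P5, with separate bounds. Its level in P5 Cd73PC was only 1.47 reads per kilobase, with a lower bound of 0.

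Between P2 and P8 the order turned past 1.5-fold on both sides for Igf2, H19, and Igfbp5, in each case from Cd73PC to Cd73NC. Such a turn was seen in 199 of all genes (0.912%, or 1.48% of the expressed genes), and the opposite turn, from Cd73NC to Cd73PC, in 46 (0.211%, or 0.343%). Of the 199 genes, 77 were already past 1.5-fold in Cd73NC at P5, as were Igf2, H19, and Igfbp5. The difference between the log2 ratios, P8 minus P2, was -5.43 for Igf2, -4.35 for Igfbp5, and -4.12 for H19. This placed them at ranks 2, 7, and 15 from the most negative of 13417 genes. As the genes were picked with these ratios known, nothing is read from the ranks or from the number that turned. For Igf1, Igfbp2, and Igfbp7 the order was past 1.5-fold at P8 only, in Cd73NC. Igfbp4 kept its side, and Igf1r, Igf2r, and Igfbp3 were past the threshold at neither age.

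**Figure D2:**
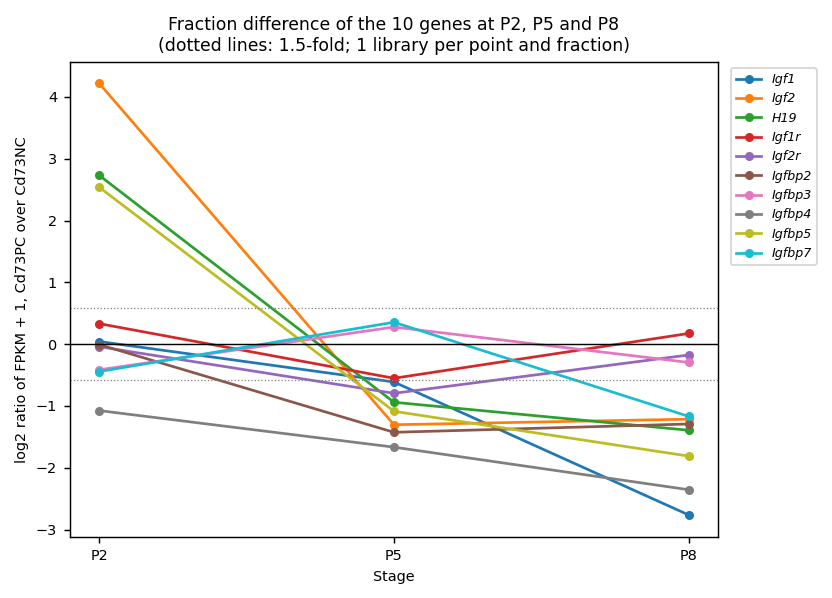
Log2 ratio of FPKM + 1, Cd73PC over Cd73NC (y axis), at P2, P5, and P8 (x axis), with 1 line per gene and dotted lines at 1.5-fold. Igf2, H19, and Igfbp5 start at 4.22, 2.73, and 2.54 and lie below 0 from P5 on, while Igfbp4 stays below 0 throughout.

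The balance of all genes leaned towards Cd73NC, with a median log2 ratio of Cd73PC over Cd73NC of -0.14 at P2, -0.18 at P5, and -0.23 at P8 among the genes that reached 1 FPKM in a fraction of that age. Relative to this median, the log2 ratios of Igf2 were 4.36, -1.13, and -0.99 at the 3 stages, those of H19 2.87, -0.76, and -1.17, and those of Igfbp5 2.68, -0.91, and -1.58. The turn of the 3 genes past 1.5-fold was found on both scales. At P8, Igf1 was at -2.54 and Igfbp4 at -2.13 relative to the median. At P5, Igf1 was no longer past 1.5-fold, at -0.43. Quantile normalization brought the median of all genes to between -0.03 and 0.05, and the share of calls that lay in Cd73PC at P8 from 28.9% to 49.2%. With it, Igf2, H19, and Igfbp5 still turned, whereas at P5 Igf1 and Igf2r were no longer past 1.5-fold and Igfbp3 and Igfbp7 were, in Cd73PC.

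Of 42 other genes of the pathway, 4, 1, and 5 were past 1.5-fold in Cd73PC at P2, P5, and P8 in turn, and 9, 13, and 8 in Cd73NC. None of the 42 turned from Cd73PC at P2 to Cd73NC at P8, and with 0.912% of all genes turning this way, a list of this length holds less than 1 such gene at the background share, so nothing is read from the 0. Of all genes, 7.02% to 8.57% were past 1.5-fold in Cd73PC and 14.4% to 18.6% in Cd73NC over the 3 stages. Their median log2 ratio, over those that reached 1 FPKM at that age, was -0.06 at P2 (30 genes), -0.30 at P5 (29), and -0.09 at P8 (27), against the -0.14, -0.18, and -0.23 of all genes. After quantile normalization, the count at P8 was 9 in Cd73PC and 7 in Cd73NC.

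Outside the cell, 12 genes of ligands, binding proteins, and proteases were followed. Htra1, a secreted serine protease that can cleave IGF-binding proteins, led this list and was the only one of the 42 past 1.5-fold in Cd73PC at all 3 stages. It was at 1.38 FPKM at E15 and 5.77 at E18, at 5.12, 117, and 51.4 in the Cd73NC libraries, and at 192, 290.3, and 208 in those of Cd73PC. Its log2 ratio of 4.98 at P2 was above that of Igf2, and unlike Igf2 it stayed in Cd73PC. Igfbpl1, a secreted relative of the binding proteins, was at 71.4 FPKM at E15 and 14.6 at E18, and was past 1.5-fold in Cd73NC at each stage (12.3 against 3.02, 11.9 against 2.35, and 4.73 against 0.806). Stc2, an inhibitor of the IGFBP-cleaving protease Pappa, was too, at 1.71 against 0.747, 1.63 against 0.336, and 2.40 against 0.295. The insulin gene Ins1 and Igfbp1 were listed at 0 in all libraries. Pappa, Pappa2, and the acid-labile subunit gene Igfals stayed below 1 FPKM.

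Among 25 genes of receptors and signalling, 17 were past 1.5-fold in neither fraction at P2, and the number was again 17 at P5 and P8. At P2, P5, and P8, 3, 0, and 3 were past it in Cd73PC, and 5, 8, and 5 in Cd73NC. Over the stages, the shares of all genes were 7.02% to 8.57% and 14.4% to 18.6%. Those of the expressed genes were 11.3% to 13.7% and 23.3% to 29.6%, and nothing is read from the counts. Of the 25, Irs1, Grb10, and Pik3r3 were past 1.5-fold in Cd73NC throughout. Irs1, an adaptor directly behind the receptor, was at 9.83, 6.56, and 4.92 FPKM in Cd73NC from P2 over P5 to P8, and at 2.45, 1.11, and 0.821 in Cd73PC. Irs2, its relative, went past the threshold only at P8, with 2.21 in Cd73NC and 6.96 in Cd73PC. Grb10, an imprinted adaptor that restrains the receptor, led the list at 196 FPKM in E15 whole retina and was 130 against 40.3 at P2, 71.3 against 15.2 at P5, and 22.9 against 9.57 at P8. Pik3r3, a regulatory subunit of phosphoinositide 3-kinase, was 41.4 against 17.7, 47.3 against 13.2, and 53.5 against 11.4. Another such subunit, Pik3r1, reached 180 in P2 Cd73PC against 59.0 in Cd73NC, was level at P5 (108 and 110), and was 71.3 against 26.1 at P8. Insr, the insulin receptor, was within 1.5-fold at P2 and P8 and 17.9 in Cd73NC against 10.8 at P5. Mtor, a kinase further downstream, lay between 8.73 and 13.8 FPKM over the libraries.

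**Figure D3:**
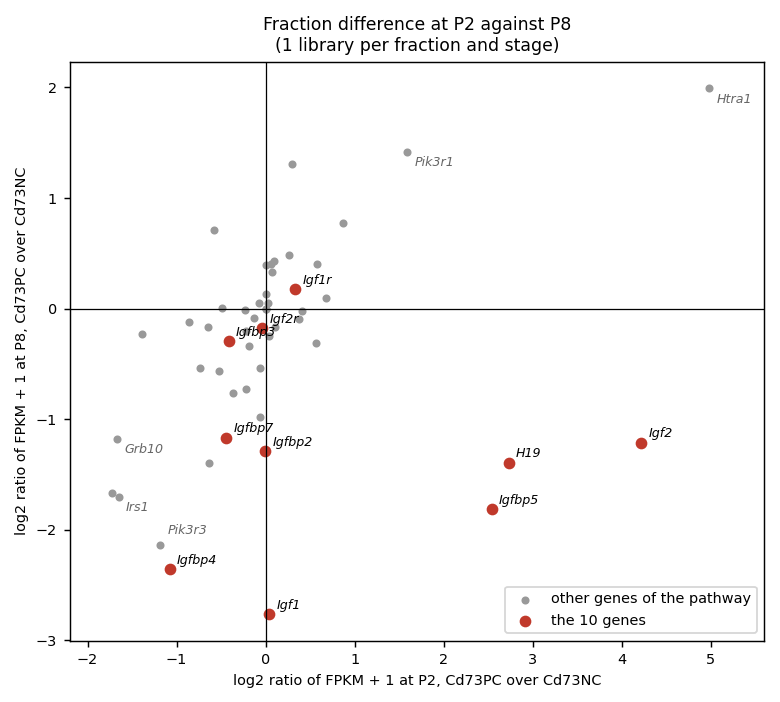
Log2 ratio of FPKM + 1, Cd73PC over Cd73NC, at P2 (x axis) against P8 (y axis) for the 10 genes (red) and 42 other genes of the pathway (grey), with 1 library per fraction and stage. Igf2, H19, and Igfbp5 lie at the lower right, and Htra1 lies at the upper right, at 4.98 and 1.99.

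Proteins that bind Igf2 mRNA (the Igf2bp family and Lin28) formed a list of 5. Igf2bp2 led it, with 40.0 FPKM at E15, 24.2 at E18, and between 2.02 (P8 Cd73NC) and 22.8 (P2 Cd73NC) after birth. Igf2bp1 was 21.5 in E15 whole retina and 0.177 and 0.0830 in the P8 fractions, and Igf2bp3 was 27.6 and then 3.31 and 4.70. The 3 genes were thus lower at P8 than at E15 in both fractions, while Igf2 was higher. Lin28a and Lin28b were at most 0.251 and 1.40 FPKM, in E15 whole retina.

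Other imprinted genes were set beside Igf2 and H19. Of 21, 1 turned from Cd73PC to Cd73NC past 1.5-fold, against 0.912% of all genes. For a list of this length, nothing is read from that count. The gene was the maternally expressed non-coding Meg3, with 8.54 FPKM in Cd73PC against 4.69 at P2, and 2.05 against 8.29 at P8. Plagl1, a zinc-finger gene that regulates imprinted genes, was 82.9 in Cd73NC against 25.7 at P2, and 16.2 against 4.02 at P8. Nnat, which led the list at 1287 FPKM in E15 whole retina, was 1199 against 533 at P2 and 831 against 149 at P8, so both stayed in Cd73NC at all 3 stages. Of 8 genes near Igf2 and H19 on chromosome 7, 0 turned, which for so short a list does not differ from the background share of 0.912%. Ctsd, the lysosomal protease cathepsin D and the highest of them, was 224 in Cd73PC against 105 at P2 and 344 against 275 at P8, and Syt8 was listed at 0 throughout.

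The libraries also differed in genes that mark other cells, and these are given beside the turn of Igf2, H19, and Igfbp5. Among 16 lists, the summed FPKM of 3 lists (astrocyte, bipolar, and stromal) was past 1.5-fold in Cd73PC at P2 and in Cd73NC at P8. Astrocyte markers summed to 26.0, 9.09, and 8.52 FPKM in Cd73PC from P2 over P5 to P8 and to 2.90, 33.9, and 25.1 in Cd73NC, and 4 of the 5 genes were past 1.5-fold in Cd73PC at P2 and all 5 in Cd73NC at P5 and P8. The highest were Pdgfra (15.4 against 2.22 at P2, 4.42 against 12.4 at P8) and Gfap (2.52 against 0.187, and 2.04 against 4.88), and no astrocyte marker was at 0 in any library. Bipolar markers summed to 38.1, 27.0, and 193 in Cd73PC and to 7.59, 63.5, and 1384 in Cd73NC. At P2 only 3 of the 8 were past 1.5-fold in Cd73PC, where Vsx1 and Grm6 were at 0.0122 and 0.0198 FPKM. At P8 all 8 were past it in Cd73NC. The highest were Pcp2 (25.9 against 2.62 in Cd73NC at P2, 84.7 against 468 at P8) and Cabp5 (5.66 and 1.39, then 22.9 and 183), while Bhlhe23 was at 0 in both fractions at P2 and Grm6 in Cd73NC. Stromal markers were weak, with sums of 1.64 and 1.07 at P2 and 3.52 and 16.5 at P8. Over the 8 libraries, Col1a2 (12.4 in P8 Cd73NC) and Col1a1 were the highest stromal markers. At P2 only 1 of the 10 stromal genes was past 1.5-fold, Ogn (0.771 in Cd73PC against 0). Without Ogn the P2 sums were 0.869 in Cd73PC and 1.07 in Cd73NC, so that the stromal list no longer turned, and Col1a1 was itself higher in Cd73NC (0.4998 against 0.219). Dcn, Lum, and Ogn were at 0 in P2 Cd73NC, and Lum and Twist1 in P2 Cd73PC. The part of these cells in the turn of Igf2, H19, and Igfbp5 was not tested.

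Microglial markers summed to 78.8, 61.4, and 209 FPKM in Cd73PC from P2 over P5 to P8 and to 13.2, 96.3, and 274 in Cd73NC. All 14 were above in Cd73PC at P2 (12 past 1.5-fold) and 1 of 14 at P5 and at P8, with C1qa (15.3 against 2.44 at P2, 40.8 against 51.7 at P8) and Ctss (8.32 against 1.41, and 32.3 against 42.5) highest and Mrc1 at 0 in P2 Cd73NC. Markers of the retinal pigment epithelium also stood higher in Cd73PC at P2 (83.6 against 3.25), but stayed so, with 77.95 against 54.1 at P5 and 129 against 70.6 at P8. Pmel (37.4 against 0.325 at P2) and Ttr were highest, and Rpe65 was at 0 in both P2 fractions. Haemoglobin and other erythroid genes were higher in Cd73NC throughout, at 133 against 40.2, 2009 against 1363, and 7007 against 2764, led by Hba-a1 (5073 in P8 Cd73NC) and Hbb-b2. Whether these cells had a part in the values of the 10 genes was not tested.

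**Figure D4:**
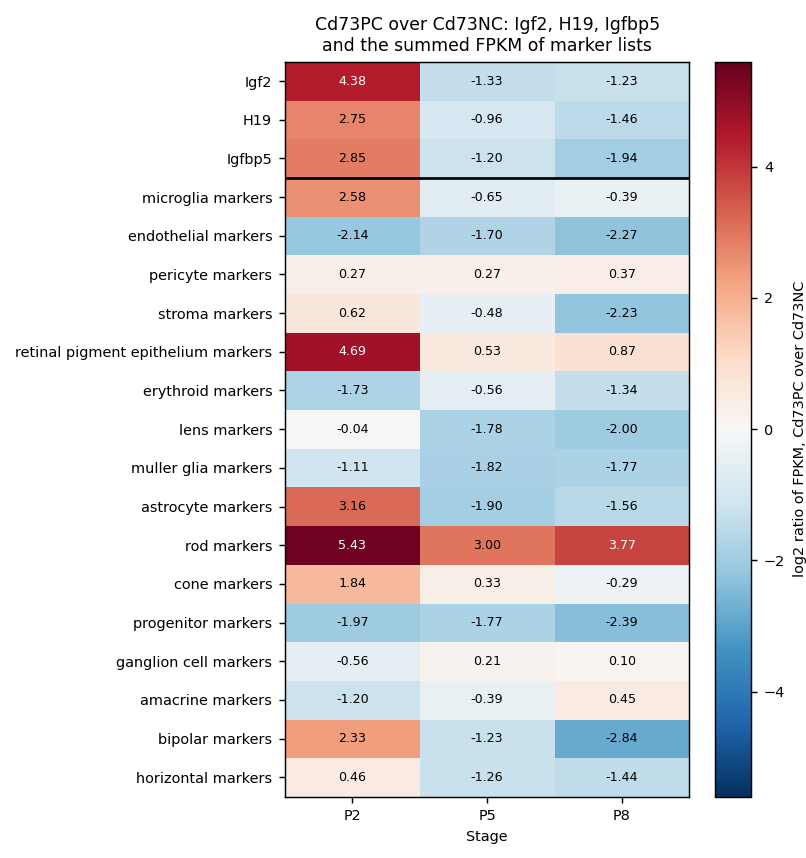
Log2 ratio of FPKM, Cd73PC over Cd73NC (colour and printed value, red for Cd73PC), of Igf2, H19, and Igfbp5 and of the summed FPKM of 16 lists of marker genes, at P2, P5, and P8. In sum, astrocyte, bipolar, microglial, stromal, and horizontal cell markers change from red to blue after P2. At P8, 3 of the 4 horizontal cell markers were nevertheless above in Cd73PC. Rod markers stay red, and progenitor markers stay blue.

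Neither vessel list turned from Cd73PC to Cd73NC, and both are given beside Igf1, Igfbp4, and Igfbp7, which were higher in Cd73NC at P8. Endothelial markers summed to 185, 173, and 112 FPKM in Cd73NC from P2 over P5 to P8 and to 42.0, 53.5, and 23.1 in Cd73PC. Most of this was Kdr (67.5 in P8 Cd73NC), which retinal progenitors also express, and Cldn5 (29.1 in P2 Cd73NC), whereas Cdh5 and Pecam1 were at most 2.41 and 1.46 FPKM and Sox17 was at 0 in both P2 fractions. Without Kdr the sums at P2, P5, and P8 were 46.0, 30.6, and 44.1 in Cd73NC and 12.3, 31.4, and 13.6 in Cd73PC. At P5, 10 of the 15 endothelial markers were above in Cd73PC. Of these only 1, Cdh5 (2.41 against 1.13), was past 1.5-fold, and 2 markers, Kdr and Flt1, were past it in Cd73NC. Igfbp7 was 9.00 in Cd73PC and 6.82 in Cd73NC at P5, with overlapping bounds. Of 11 pericyte markers, 8 were past 1.5-fold in Cd73NC at P8, among them Rgs5 with 14.7 against 2.11, while the most abundant, Vtn, was higher in Cd73PC (51.5 against 8.36), and Kcnj8 was at 0 in both P2 fractions. Müller glia markers summed to 424 in Cd73PC and 1441 in Cd73NC at P8 (9 of 10 past 1.5-fold in Cd73NC), with Apoe (540) and Dkk3 highest. Progenitor markers summed to 22.3 and 117 at P8 (7 of 7). Ccnd1 and Fgf15 were the highest of them over the 8 libraries, but at P8 Fgf15 was only 0.293 and 3.15. Their part in the values of Igf1, Igfbp4, and Igfbp7 was not tested. For the other lists, the sums in Cd73PC and Cd73NC at P8 were 421 and 513 (cones) and 56.1 and 41.0 (amacrine cells). Most of both cone sums was Gnb3 (255 against 388). Of the 8 cone markers, 3 were past 1.5-fold in Cd73PC and 1, Gnb3, in Cd73NC. Most of the amacrine sum in Cd73PC was Slc6a9 (50.7 against 10.4), and 1 of the 6 amacrine markers was past 1.5-fold in Cd73PC and 3 in Cd73NC. The sums were 0.536 and 1.46 for horizontal cells, after 2.97 and 2.16 at P2, and 0.957 and 3.83 for the lens. None of the 4 horizontal cell markers was past 1.5-fold at P2, and at P8 3 of the 4 were above in Cd73PC. Most of both P8 sums was Onecut2 (0.328 against 1.34), which at P2 was 0.795 against 0.872. Over the 8 libraries, the highest were Gnb3 and Opn1sw (cones), Pax6 and Slc6a9 (amacrine), Onecut1 and Onecut2 (horizontal), and Cryaa and Bfsp2 (lens). In these lists, the amacrine marker Chat was at 0 in both fractions at P5 and P8, the lens marker Crygd in both at P8, and the horizontal cell marker Lhx1 in P8 Cd73NC.

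Genes with a like course were sought for each of the 10 among 6547 others that reached 5 FPKM and varied by at least 1 on the log2(FPKM + 1) scale. Over the 8 libraries, the highest Pearson r with Igf2 was that of 0610040J01Rik (0.99), Vit (0.98), and Lcat (0.96), all expressed far below it: in P2 Cd73PC and Cd73NC, Vit was 6.08 and 0.150 FPKM. Next to H19 stood Mtnr1a (0.96), Vamp4 (0.94), and Slc25a36 (0.91), and next to Igfbp5 stood Hspa12a (0.92), Pgm2l1 (0.87), and Ahcyl2 (0.86). For Igf1 they were Disp2 (0.99), Tspyl4 (0.98), and Caskin1 (0.98). For Igfbp2 they were Dusp18 (0.99), Nradd (0.98), and Inppl1 (0.98), and for Igfbp4 Gm5803, Six3, and Cenpv (0.997, 0.99, and 0.99). For Igfbp7 they were Rgs5, C230096C10Rik, and Myl9 (0.90 each). For Igf2r they were 5031439G07Rik (0.94), Zfp423 (0.94), and 2810474O19Rik (0.93), and for Igf1r and Igfbp3 no gene exceeded 0.88 and 0.73, those being Bc1 and Col4a1, ahead of Gm3414 and Cnnm3 (0.81 and 0.79) and of Pdlim7 and Arhgef1 (0.69 and 0.66). Between the 10 genes themselves, r was 0.89 for Igfbp2 with Igfbp4, 0.51 for Igf2 with Igfbp5, 0.41 for H19 with Igfbp5, and 0.31 for Igf2 with H19. With 8 points from 8 conditions that share fractions and ages, and the top of 6547 taken each time, these values only describe likeness.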

How the data were processed

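RNA of 8 mouse retina samples was sequenced as short single-end reads from randomly primed cDNA, without strand information. Per the labels, the authors used CASAVA 1.8.2, bcl2fastq 1.8.4, TopHat2 2.0.8b, and Cufflinks 2.1.1 with mm9, and the deposited tables list the FPKM of 23021 rows and its bounds. FPKM is scaled to transcript length and mapped fragments, so a few abundant genes can shift all others.

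From these values, 794 rows of small RNAs were left out, 234 symbols with more than 1 row were summed, and failed rows (4 to 10 per library) were taken as missing in 20 genes, which left 21830 genes. Ratios were taken on log2(FPKM + 1), which understates the change of weak genes, and a gene was called past 1.5-fold, the threshold of the study. Groups followed the labels. With 1 library per condition no test was run, and the precision is that of Cufflinks' bounds, which cover the estimate within a library only.

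Depth was estimated from rows below 0.5 FPKM with a single annotated transcript longer than 1000 bases, as the FPKM worth 1 read after 199 bases were taken off the length. It came to 14600000 mapped fragments at E15, 15100000 at E18, 19100000 and 24400000 in P2 Cd73NC and Cd73PC, 17300000 and 16800000 at P5, and 22700000 and 19100000 at P8. Of the values up to 10 reads, 63.6% to 67.8% lay within 0.05 of a whole number.

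The 10 members and all gene lists were chosen with earlier results of these data known. Genes were named by rule: all members; pathway genes past 1.5-fold in 1 direction at all 3 stages or with the highest FPKM of their list; in each marker list the pair with the highest FPKM in any library and those at 0; and, for each member, the 3 genes with the highest Pearson r. Some genes of these lists are not reported here and were left out of their counts and sums. Genes named beyond this were chosen after their values were seen. Alternatives were a pseudocount of 0.1, upper-quartile scaling, quantile normalization, a 2-fold threshold, separate Cufflinks' bounds, and a filter for 1 FPKM in a library; taking off the median ratio of all genes was added after the data were seen. Sequences are from RefSeq (GRCm38.p6) and, for Igf1r, from NCBIM37 with GENCODE vM1, and proteins were not used here. Scripts (Python 3.11.15, numpy 2.4.6, pandas 2.3.3, matplotlib 3.10.9) were tested on simulated data.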

Additional observations from a re-analysis of the deposited data

Results flagged for a closer look

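For Igf2, H19, and Igfbp5 the difference between the fractions ran in opposite directions at P2 and at P8. The log2 ratio of Cd73PC over Cd73NC, P8 minus P2, was -5.43 for Igf2, -4.12 for H19, and -4.35 for Igfbp5. There was 1 library per fraction and stage, so this difference was not tested. In the same libraries the summed astrocyte, bipolar, and stromal markers changed sides past 1.5-fold. For stromal markers this was through Ogn alone, and at P2 only 3 of 8 bipolar markers were past 1.5-fold in Cd73PC. Microglial markers went from 5.97-fold higher in Cd73PC at P2 to 1.57-fold and 1.31-fold higher in Cd73NC at P5 and P8. The part of all these cells in the turn was not tested.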

How the results depend on the processing

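The turn of Igf2, H19, and Igfbp5 from Cd73PC at P2 to Cd73NC at P8 was found under all 7 alternatives. So were the 7 genes higher in Cd73NC at P8, with Igfbp3 added under a pseudocount of 0.1. The filter for 1 FPKM could not change these results, since each of the 10 genes reached 1 FPKM in a library. No paired analysis was possible because each fraction had 1 library at a given stage. The fractions of a stage came from the same retinas, so the 3 stages form 3 pairs, but a fraction difference common to them was not tested, since the genes were chosen on these ratios. Leaving out a library removes its condition, so this was not done. In marker sums, single genes were left out after their values were seen: without Ogn the ratio of Cd73PC to Cd73NC for the stromal list at P2 was 0.813, against 1.53 with it, and without Kdr that of the endothelial list at P5 was 1.03, against 0.309. With a pseudocount of 0.1, 3 of the 10 genes were higher in Cd73NC at P2 (Igfbp3 and Igfbp7 beside Igfbp4), and among the 42 other pathway genes the counts were 7 in Cd73PC and 14 in Cd73NC at P2, 3 in Cd73PC at P5, and 16 in Cd73NC at P8. With quantile normalization, 2 of the 10 were higher in Cd73PC at P5, and the other pathway genes counted 8 in Cd73NC at P5 and 9 in Cd73PC at P8. At 2-fold, 4 of the 10 were higher in Cd73NC at P5, and the other pathway genes counted 2 in Cd73PC and 5 in Cd73NC at P2, 4 in Cd73NC at P5, and 3 and 5 at P8. With the median ratio of all genes taken off, they counted 8 in Cd73NC at P5 and 10 in Cd73PC at P8. The cause of these shifts was not tested. Of 90 single ratios under the 3 alternatives that apply to them, 0 were reversed, but the uncalled directions of Igf2r and Igfbp2 at P2 and of Igf2r and Igfbp3 at P8 changed sign with the scaling. Depth limits Igf1 at P2, at 1.16 and 2.25 reads per kilobase, and in P5 Cd73PC, at 1.47.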
